A study of Ovis aries with 16 samples.

Results

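Corn-only regions are stretches of the genome where at least 3 of 8 fetuses from corn-fed ewes had a methylation peak and 0 of 8 fetuses from hay-fed ewes had one. Peaks of all fetuses on chromosomes 1 to 26 were merged wherever they shared at least 1 bp, which gave 678678 regions, and 4188 of these were corn-only. That is 0.617% of all merged regions, 1.01% of the 414599 regions called (holding a peak) in at least 3 fetuses, and 2.41% of the 173564 regions called in 3 to 8 fetuses, the only ones that could meet the rule. The opposite rule, with a peak in at least 3 hay and 0 corn fetuses, gave 7391 hay-only regions, which made up 1.09%, 1.78% and 4.26% of the same sets. Since the regions were chosen by the presence of peaks in these fetuses, the number of corn and hay fetuses at each region is a description and carries no test.

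The samples were longissimus dorsi (LD) muscle of 16 sheep fetuses of Polypay ewes. The ewes received either a hay diet of alfalfa haylage or a corn diet, which also held some haylage and a supplement, from mid-gestation until necropsy in late gestation. Both diets met the needs of pregnancy at equal metabolizable energy. The diet was fed to the ewe, and the study's description of its fetuses lists every hay fetus and most corn fetuses as one of a pair of twins. The labels do not say which samples are twins, so dam could not enter a test. Values of n count fetuses, not ewes, and p-values treat twins as independent, so they measure only the spread between these fetuses.

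DNA methylation is the addition of a methyl group to cytosine, mostly where it is followed by guanine (CpG). The methyl group comes from S-adenosylmethionine, which is made from methionine with the help of folate and choline, and this links methylation to what the dam eats. In muscle, methylation marks are laid down and reshaped while myoblasts differentiate and fuse into fibres. The assay pulls down DNA fragments with a methyl-binding domain protein, so a peak marks a place where fragments with methylated CpG sites piled up. It does not give the percentage of methylated cytosines, and a fetus without a peak is not shown to be unmethylated, because fewer reads and less methylation cannot be told apart in peak lists.

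The corn-only regions were mostly called in few fetuses. A peak was found in 3 corn fetuses at 2913 regions (69.6%), in 4 at 876, in 5 at 295, in 6 at 85, in 7 at 16 and in all 8 at 3. The hay-only regions leaned further towards the minimum, with 5736 of 7391 (77.6%) called in 3 fetuses, 3 called in 7 and 0 called in all 8. Just outside the rule lay 12380 regions with a peak in 2 corn and 0 hay fetuses and 6495 with a peak in 3 corn and 1 hay fetus. Median width rose across that edge, from 244 bp at the regions with 2 corn fetuses to 288 bp at those with 3 corn fetuses and 355 bp at those with 3 corn and 1 hay fetus. The median peak score, which is −log10 of the deposited P-value of a peak, was 1.17, 1.18 and 1.21 at these sets. At 3914 of the corn-only regions (93.5%) at least 1 base lay under the peaks of 3 or more corn fetuses. At the other 274 the peaks overlapped only end to end, as links of a chain.

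All 8 corn fetuses had a peak at 3 regions, on chromosomes 1, 2 and 10 (coordinates in Oar_v3.1 throughout). The first lies on chromosome 1 from 82128793 to 82129642 (850 bp). Its peak scores were 1.12 in corn fetus 1, 1.17 in fetus 2, 1.01 in fetus 4, 1.49 in fetus 6, 2.07 in fetus 7, 1.15 in fetus 9, 1.12 in fetus 13 and 1.80 in fetus 14. Fetuses 7 and 14 stood above the rest, and the mean was 1.37 ± 0.38 (SD, n = 8). The second lies on chromosome 2 from 4996132 to 4996786 (655 bp), with scores of 1.45, 1.13, 1.08, 1.13, 1.06, 0.988, 1.33 and 1.47 in the same order of fetuses. These peaks were weak, with a P-value above 0.05 in 5 of the 8 fetuses, the same number as at the first region. The third lies on chromosome 10 from 63230139 to 63230922 (784 bp), with scores of 1.25, 1.58, 1.03, 1.19, 1.45, 1.48, 1.75 and 1.95. The nearest peak of any hay fetus was 1079 bp away at the first region, 1304 bp at the second and 773 bp at the third. All 8 fetuses had a base in common at the third region, 7 at the first and 6 at the second. The call in all 8 depended on the weak peaks. With only peaks scoring above the 25th percentile, 3, 3 and 7 corn fetuses had a peak at these regions, and with the same number of peaks in every fetus 5, 3 and 4 did, in both cases with 0 hay fetuses.

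A further 16 regions had a peak in 7 of the 8 corn fetuses. With the 3 above, they were spread over 13 chromosomes, and their width ranged from 277 to 1066 bp with a median of 739 bp. The 136 highest scores per fetus at these 19 regions ran from 0.872 to 2.42, with a median of 1.295. Among the 16, the highest mean score was 1.71 ± 0.42 (SD over the 7 calling fetuses), on chromosome 3 from 219114688 to 219115576 (889 bp). The most remote from any hay peak, at 18741 bp, was a region of 342 bp on chromosome 4 from 82859351 to 82859692, with a mean score of 1.41 ± 0.16 (SD over the 7 calling fetuses). The fetus without a peak was corn fetus 4 at 4 regions, corn fetuses 1 and 13 at 3 each, corn fetuses 2 and 6 at 2 each and corn fetuses 9 and 14 at 1 each. Corn fetus 7, which had the most peaks in the diet group, had a peak at every one of the 19.

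The strongest corn-only regions, ranked by mean score among those called in at least 5 corn fetuses, had a peak in 5 fetuses each. First was a region on chromosome 10 from 23559317 to 23559757 (441 bp). Its scores were 6.41 in corn fetus 1, 2.62 in fetus 14, 2.01 in fetus 2, 1.80 in fetus 9 and 1.27 in fetus 6, so that the mean of 2.82 was set by a single fetus. Second was a region on chromosome 2 from 46822303 to 46823133 (831 bp), with scores of 2.96 in fetus 1, 2.51 in fetus 9, 2.09 in fetus 6, 1.97 in fetus 14 and 1.25 in fetus 7. No hay fetus had a peak within 7140 bp of it, the longest such distance among these 5. The third lies on chromosome 22 from 39580265 to 39581044 (780 bp, scores 1.18 to 2.40), the fourth on chromosome 15 from 23900771 to 23901579 (809 bp, 1.12 to 2.98) and the fifth on chromosome 5 from 78614447 to 78614749 (303 bp, 1.52 to 2.27). At the fifth, corn fetuses 2, 4, 7, 13 and 14 all had a P-value under 0.05.

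Each corn fetus contributed to the regions roughly in the order of how many peaks it had. A peak was present at 2663 corn-only regions in corn fetus 7, 2070 in fetus 13, 2041 in fetus 4, 1868 in fetus 6, 1853 in fetus 1, 1556 in fetus 14, 1209 in fetus 9 and 1104 in fetus 2. The mean was 1796 ± 504 (SD, n = 8), or 42.9% ± 12 of the 4188 regions. Corn fetuses 7 and 4 had the most peaks overall (481662 and 478574 on these chromosomes) and corn fetuses 9 and 2 the fewest (309585 and 315837). Per 1000 of its own peaks, a corn fetus had between 3.50 (fetus 2) and 5.53 (fetus 7) at corn-only regions. Hay fetuses were far less even at the hay-only regions, with counts from 372 in hay fetus 11 to 5374 in hay fetus 15 and 1.48 to 10.6 per 1000 of their peaks. Hay fetuses 11 and 10 also had the fewest peaks of all (251969 and 290089) and hay fetus 15 the most (506610). Single fetuses also moved the size of the class. It held 2563 regions without corn fetus 7, 6459 without hay fetus 8 and 6719 without hay fetus 15, and corn-only regions outnumbered hay-only ones when hay fetus 3, 5, 8, 15 or 16 was left out. Leaving out a fetus eases the rule of the other diet and tightens that of its own diet. The direction of these changes thus follows from the rule, and only their size differs between fetuses. When each fetus was given the same number of peaks, its 251969 best-scoring ones, 4287 corn-only and 4611 hay-only regions resulted, and 412 of the original 4188 (9.84%) overlapped one of these 4287. The part that peak numbers play in which regions are corn-only was not tested further.

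**Figure D1:**
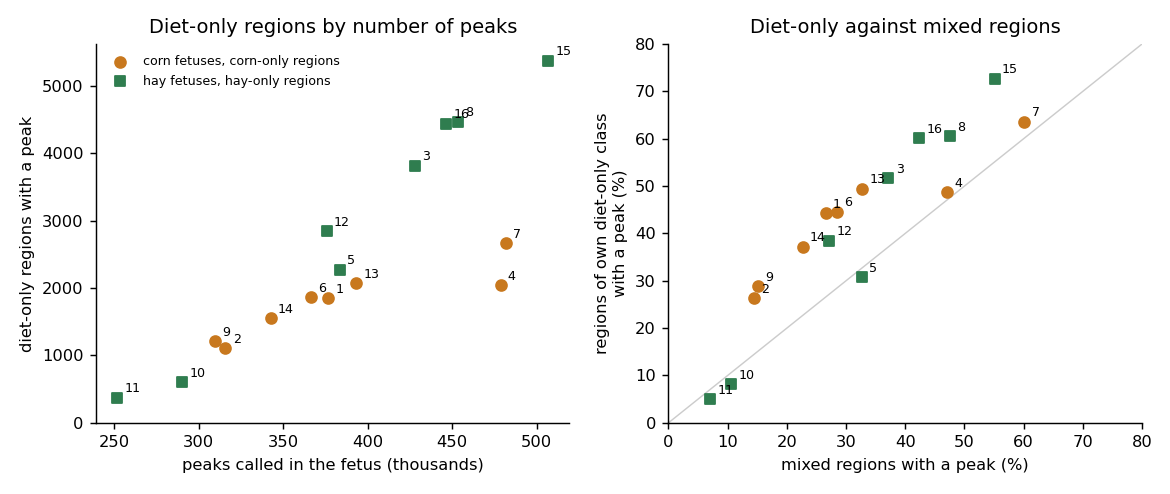
Left, the number of corn-only regions with a peak in each corn fetus (circles) and of hay-only regions in each hay fetus (squares) against its number of peaks (axis in units of 1000), with the fetus number beside each point; right, the percentage of its diet-only regions with a peak against its percentage of mixed regions (3 to 8 fetuses, both diets) with a peak, with a grey line of equality. Counts run from 1104 to 2663 in corn and from 372 to 5374 in hay, and hay fetuses 10 and 11 sit lowest in both panels.

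Corn fetuses 4, 7 and 13 formed the commonest set, being the only fetuses with a peak at 274 regions (6.54%). Next came fetuses 1, 4 and 7 with 164 regions and fetuses 4, 6 and 7 with 156. All 56 possible sets of 3 fetuses occurred, the rarest at 11 regions, and 211 different sets of any size were seen. Among pairs, fetuses 4 and 7 shared the most, with a peak in both at 1336 regions, or 39.7% of those with a peak in either. At mixed regions, which had a peak in 3 to 8 fetuses with at least 1 of each diet, the same pair shared 35.3%. Fetuses 2 and 9 shared the fewest corn-only regions (353, or 18.0% of either, against 13.7% at mixed regions). The rule places every calling fetus of a corn-only region among the corn fetuses, while mixed regions divide theirs between the diets. Higher sharing between corn fetuses at corn-only regions therefore follows from the rule.

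Corn-only regions were narrow. The median region width was 307 bp, against 328 bp for hay-only regions, 527 bp for the 161985 mixed regions and 830 bp for all regions called in at least 3 fetuses. Widths fell into a lower and an upper hump. Under 400 bp lay 2920 regions (69.7%), 3.39% were from 450 to under 550 bp, and 22.5% were from 550 to under 850 bp. At mixed regions the lower hump was smaller, with 41.3% under 400 bp and 39.2% from 550 to under 850 bp. The widest corn-only region spanned 1196 bp on chromosome 2 from 183090691 to 183091886, followed by 1182 bp on chromosome 21 from 40687535 to 40688716 and 1157 bp on chromosome 4 from 77274599 to 77275755. These had a peak in 4, 4 and 3 corn fetuses, and the region on chromosome 21 lay 73 bp from a hay peak. At the region on chromosome 4 only 2 of the 3 calling fetuses shared a base. It no longer met the rule with scores above the 25th percentile, evened peak numbers or an overlap of at least 50 bp. The region on chromosome 21 no longer met it with evened peak numbers or with peaks up to 100 or 500 bp apart merged. Only 11 corn-only regions (0.263%) reached 1 kb, a length passed by 31.5% of all regions called in at least 3 fetuses. More calling fetuses went with wider regions, from a median of 288 bp at 3 fetuses to 351 bp at 4, 488 bp at 5 and 651 bp at 6, and the mixed regions above were not matched for this number.

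The single peaks under these regions were narrow and weak in every corn fetus. Median peak width at corn-only regions was 191 bp in fetus 1, 187 bp in fetus 2, 194 bp in fetus 4, 191 bp in fetus 6, 203 bp in fetus 7, 197.5 bp in fetus 9, 191.5 bp in fetus 13 and 195 bp in fetus 14. The same fetuses had medians of 197 to 228 bp at mixed regions and 250 to 518 bp over all their peaks. On average 79.0% ± 2.9 (SD, n = 8) of a fetus's peaks at corn-only regions were under 250 bp, the fragment length given to the peak caller, compared with 37.6% ± 4.5 of all its peaks. Median score was 1.19 ± 0.037 (SD, n = 8) at corn-only regions, 1.22 ± 0.047 at mixed regions and 1.54 ± 0.12 over all peaks. A P-value above 0.05 was attached to 67.2% ± 5.6 of the peaks at corn-only regions and to 33.9% ± 5.6 of all peaks of these fetuses. The hay fetuses gave like values at hay-only regions, with a mean of the median peak widths of 191.6 ± 11.5 bp and of the median scores of 1.16 ± 0.06 (SD, n = 8). No test was made, because the rule used the same contrast.

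**Figure D2:**
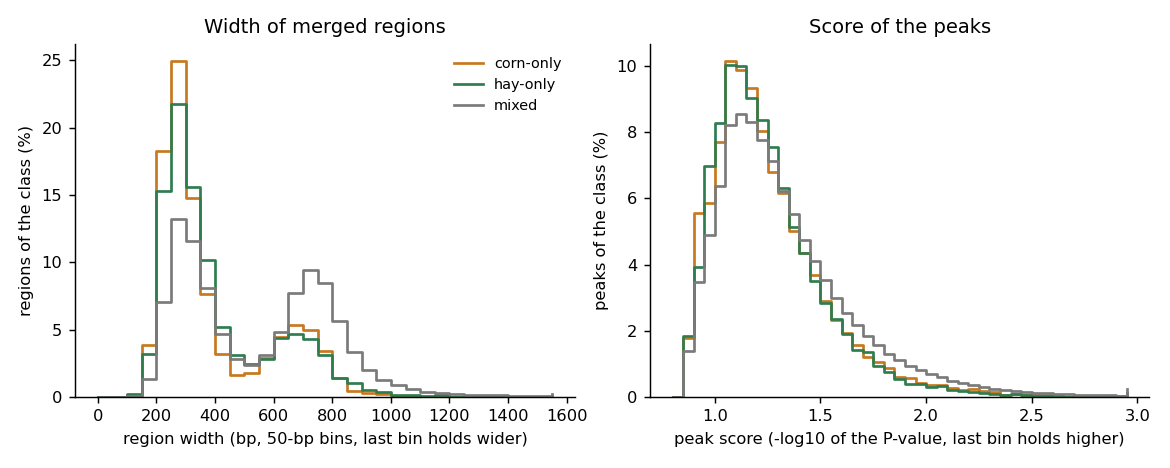
Left, the distribution of merged region widths (50-bp bins, in percent of the class) and, right, of peak scores (−log10 of the P-value, in percent of peaks) for corn-only, hay-only and mixed regions. The corn-only and hay-only curves lie close together, with medians of 307 and 328 bp and of 1.20 for both scores, while mixed regions hold more of the upper width hump.

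Whether a region with peaks in corn fetuses alone would also be called in a corn fetus that had no part in choosing it was examined by leaving out 1 corn and 1 hay fetus at a time. The regions were rebuilt from the other 14 fetuses, with a peak in at least 3 of 7 corn and 0 of 7 hay fetuses, and looked up in the left-out pair. Over the 64 pairs these lists held 2974 to 5909 regions. The left-out corn fetus had a peak at 26.6% of them for fetus 1, 16.5% for fetus 2, 27.4% for fetus 4, 28.8% for fetus 6, 42.9% for fetus 7, 18.5% for fetus 9, 30.1% for fetus 13 and 24.2% for fetus 14. The left-out hay fetus had a peak at 25.96% for fetus 3, 35.0% for fetus 5, 36.5% for fetus 8, 14.1% for fetus 10, 11.5% for fetus 11, 19.6% for fetus 12, 37.9% for fetus 15 and 29.0% for fetus 16. The diets overlapped almost completely, and the mean share was 26.9% for left-out corn fetuses (SD 8.08, n = 8) and 26.2% for left-out hay fetuses (SD 10.2, n = 8). The means were 0.724 percentage points apart, less than 1 SD of either diet (two-sided exact permutation test, p = 0.876; 95% interval from inverting that test, −9.25 to 10.8).

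Because fetuses with more peaks have a peak at more regions of any kind, each share was also divided by that fetus's share at regions called in the same number of the other 14 fetuses but in both diets. This relative share was the planned measure. It averaged 1.42 ± 0.409 (SD, n = 8) in left-out corn fetuses and 1.34 ± 0.651 (SD, n = 8) in left-out hay fetuses (exact permutation test, p = 0.793, adjusted p = 0.836 over 6 tests; interval of the difference −0.516 to 0.652). Its range was 0.743 (corn fetus 4) to 1.90 (corn fetus 9) in corn and 0.828 (hay fetus 15) to 2.58 (hay fetus 11) in hay. Corn fetuses 4 and 7 and hay fetuses 3, 12, 15 and 16 were below 1, and hay fetuses 10 and 11, with the fewest peaks, were above 2. Among corn fetuses, 9 and 2 had the fewest peaks and the highest relative shares (1.90 and 1.78). Corn fetuses 4 and 7 had the most peaks and the lowest (0.743 and 0.905). The division therefore did not remove the tie to peak number, which now ran the other way. Under the hay-only rule the diets again did not differ detectably, but both mean relative shares lay below 1. They were 0.856 ± 0.193 in left-out hay fetuses and 0.874 ± 0.144 in left-out corn fetuses (SD, n = 8 each; exact permutation test, p = 0.836, adjusted p = 0.836). At this number of fetuses no difference between diets was detectable in either class, and for corn-only regions the intervals above give the sizes that could have been missed. The 16 values share most of the fetuses behind their lists and are therefore not fully independent.

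**Figure D3:**
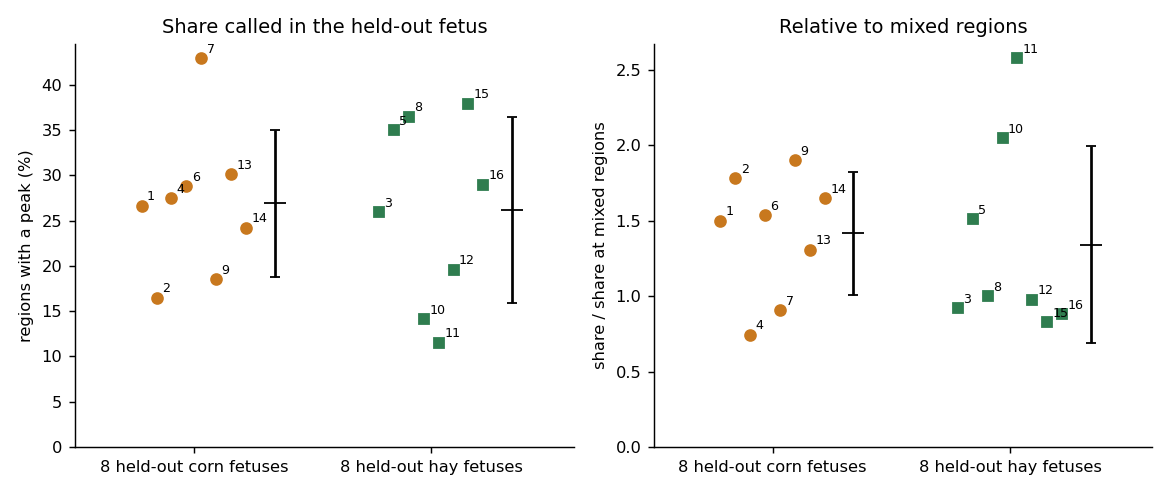
Left, the percentage of corn-only regions, rebuilt without a pair of fetuses, at which each left-out corn (circles) or hay (squares) fetus had a peak; right, that share divided by the fetus's share at mixed regions with the same number of calling fetuses. Points are fetuses with their numbers and black bars are mean ± SD (n = 8); the diets overlap in both panels, with means of 26.9% and 26.2% on the left.

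Peak width and score in left-out fetuses were set beside those at mixed regions called in 3 to 7 of the other 14 fetuses. In left-out corn fetuses the median width was 212 ± 8.51 bp at corn-only regions and 221 ± 13.1 bp at mixed regions (SD, n = 8), smaller in 7 of 8 (exact sign-flip permutation test, p = 0.0156, adjusted p = 0.0312). The left-out hay fetuses, which also had peaks at these regions, gave 211 and 222 bp, again smaller in 7 of 8 (exact sign-flip permutation test, p = 0.0234), and the diets did not differ detectably in this difference (−9.28 bp in corn, −11.6 bp in hay; exact permutation test, p = 0.613). Corn-only regions are mostly called in few fetuses and width rises with that number, so the mixed regions were also weighted to the same numbers of calling fetuses. The difference in left-out corn fetuses was then 3.76 bp, with a smaller width in 2 of 8 (exact sign-flip permutation test, p = 0.312), and in left-out hay fetuses −0.734 bp (exact sign-flip permutation test, p = 0.820). Beyond the number of calling fetuses, no difference in width was thus detectable. The score in left-out corn fetuses differed by −0.0184 from unweighted mixed regions (exact sign-flip permutation test, p = 0.0781, adjusted p = 0.117) and by 0.0137 from weighted ones (exact sign-flip permutation test, p = 0.211). Without corn fetus 9 the unweighted difference in score gave p = 0.0312 (exact sign-flip test). At hay-only regions, left-out hay fetuses differed by −14.2 bp and −0.0358 in score from unweighted mixed regions (exact sign-flip permutation tests, p = 0.00781, the smallest that 8 fetuses allow), and by −1.95 bp and −0.00466 from weighted ones (exact sign-flip permutation tests, p = 0.336 and 0.320).

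Corn-only regions were found on all 26 chromosomes, from 479 on chromosome 1 to 86 on chromosome 24. Per 1000 regions called in at least 3 fetuses there were 10.1 over all chromosomes. Chromosome 19 had the highest rate (147 regions, 14.1 per 1000), followed by chromosomes 25 (107, 12.8 per 1000), 17 (150, 12.3 per 1000) and 11 (147, 12.3 per 1000). The lowest rates were on chromosomes 5 (141, 7.92 per 1000), 10 (114, 8.05 per 1000) and 4 (161, 8.16 per 1000). The rate on chromosome 19 was 1.40 times that of all chromosomes, and 1.25 times per base under such regions. It was the only chromosome with more corn-only than hay-only regions (147 against 136). Chromosomes 11, 17 and 18 came nearest to that, with 147 against 159, 150 against 166 and 142 against 172. Chromosome 23 lay at the other end, with 92 against 249.

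Every corn fetus had a larger share of its corn-only regions on chromosome 19 than of all its regions called in at least 3 fetuses. The shares were 3.89% against 2.60% in fetus 1, 3.53% against 2.57% in fetus 2, 2.94% against 2.44% in fetus 4, 3.64% against 2.52% in fetus 6, 3.64% against 2.57% in fetus 7, 4.55% against 2.73% in fetus 9, 2.85% against 2.56% in fetus 13 and 4.24% against 2.66% in fetus 14. Chromosome 19 was singled out for its high rate over these same regions, so an excess in most fetuses follows from that choice. These fetuses also share the regions, so the 8 values are not separate observations. Of all peaks, 2.68% ± 0.063 (SD, n = 8) lay on chromosome 19 in corn fetuses, with a range of 2.60% to 2.80%. The hay fetuses had 2.62% ± 0.083 (SD, n = 8) there, with a range of 2.51% to 2.72%. The high rate did not hold when every fetus was given the same number of peaks, its best-scoring 251969. Chromosome 19 then had 1.01 times the overall rate and ranked 17 of 26.

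**Figure D4:**
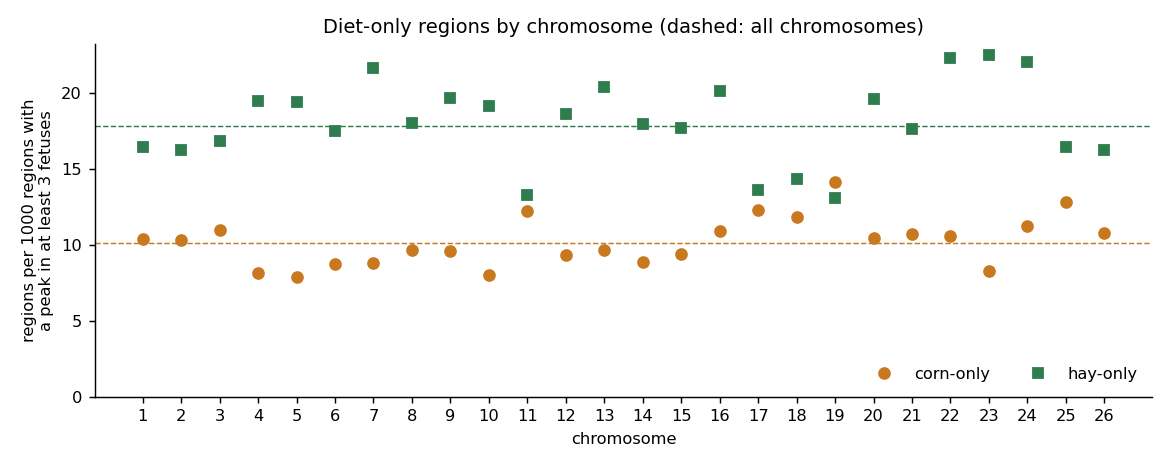
Corn-only (circles) and hay-only (squares) regions per 1000 regions called in at least 3 fetuses, for each of 26 chromosomes, with dashed lines at the rates over all chromosomes. Chromosome 19 has 14.1 corn-only and 13.1 hay-only regions per 1000, the only place where the circle lies above the square.

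In the last 2 Mb of the chromosomes, corn-only regions were sparse against all regions called in at least 3 fetuses. There were 50 of them, or 3.70 per 1000 such regions, compared with 9.82 per 1000 in the first 2 Mb and 10.3 per 1000 in the interior. In the last 2 Mb, 59.2% of such regions had a peak in all 16 fetuses, against 19.2% in the interior, and a region called in every fetus cannot be corn-only. Per 1000 regions called in 3 to 8 fetuses the rates were 22.3 in the last 2 Mb, 29.0 in the first 2 Mb (85 regions) and 24.1 in the interior. Hay-only regions gave 46.0, 43.3 and 42.5 per 1000 in the same order.

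A corn-only region was followed by another in few cases, but in more than the share of corn-only regions among all. Taking the regions called in at least 3 fetuses in order along the chromosome, the next one was also corn-only in 264 of 4187 cases (6.31%), with 1.01% of all such regions being corn-only. Among the 20 steps examined the first stood clear of the others. At the second step the share was 1.15% and at the third 1.43%, and over steps 2 to 20 it stayed between 0.931% and 1.70%. A hay-only region followed a corn-only region in 65 cases (1.55%, with 1.78% of all such regions being hay-only). Among hay-only regions 7.08% were followed by another.

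The neighbouring pairs mostly lay close together and shared more calling fetuses than pairs of corn-only regions at large, though the sets differed in most pairs. The median gap between the 264 pairs was 129 bp, and 228 of them were at most 500 bp apart. Both members had a peak in exactly the same set of corn fetuses in 100 pairs (37.9%), and a pair shared 2.68 calling fetuses on average. Over all 8767578 possible pairs of corn-only regions, the same set occurred in 1.60% and 1.57 fetuses were shared. When peaks up to 500 bp apart were merged before applying the rule, there were 2412 corn-only regions, and 25 of them (1.04%) were followed by another, with 0.723% of regions called in at least 3 fetuses being corn-only. Most corn-only regions stood alone: 3665 had no corn-only neighbour, 254 runs had 2 members and 5 runs had 3. The most compact run of 3 spanned 1708 bp on chromosome 11 from 13067713 to 13069420, where corn fetuses 13 and 14 had a peak in each member. The next spanned 7366 bp on chromosome 3 from 17316374 to 17323739, with corn fetuses 4 and 7 in each, and the third spanned 11227 bp on chromosome 25 from 19321360 to 19332586, with corn fetus 13 in each.

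**Figure D5:**
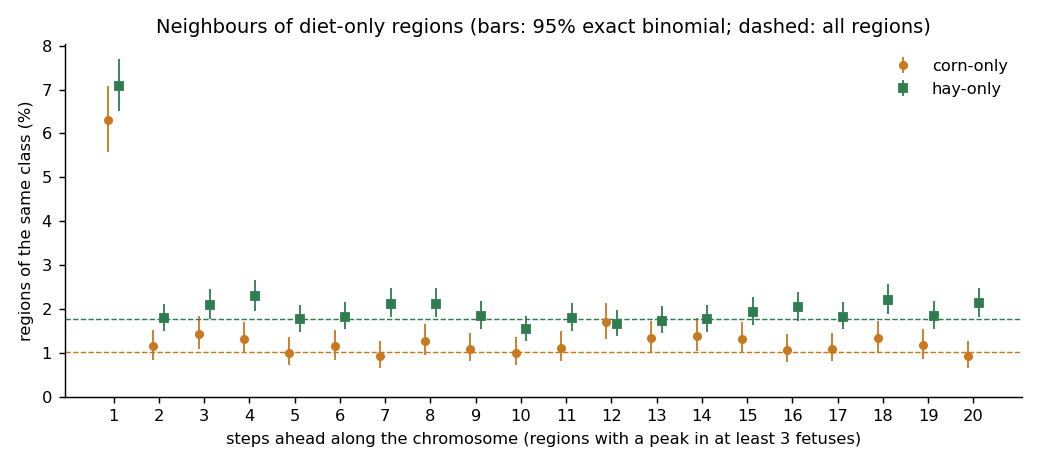
Percentage of corn-only (circles) and hay-only (squares) regions whose neighbour 1 to 20 steps ahead, counted in regions called in at least 3 fetuses, was of the same class, with 95% exact binomial intervals that cover counting error only and dashed lines at the share of each class among all such regions. The first step stands apart, at 6.31% for corn-only and 7.08% for hay-only regions. Later steps lie between 0.931% and 1.70% for corn-only regions, mostly above their dashed line at 1.01%, and between 1.54% and 2.29% for hay-only regions.

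At a larger scale the regions were thinly spread. Of 2467 windows of 1 Mb with a region called in at least 3 fetuses, 540 held no corn-only region, 708 held 1 and 116 held at least 5. The fullest window, on chromosome 19 between 5 and 6 Mb, held 9 corn-only and 8 hay-only regions among 272 regions called in at least 3 fetuses. A further 8 windows held 8 corn-only regions each, beside 1 to 8 hay-only regions.

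Hay peaks were seldom far away. The median distance from a corn-only region to the nearest peak of any hay fetus was 802.5 bp, and 1774 regions (42.4%) had one within 500 bp, 467 of them within 100 bp. For hay-only regions the median distance to a corn peak was 908 bp, with 37.7% within 500 bp. Regions called in all 16 fetuses were distant, at a median of 15642 bp from corn-only, 11752 bp from hay-only and 12587 bp from mixed regions.

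Gene positions in Oar_v3.1 were at hand for 28 genes of the study's own list, which the authors drew up from diet differences in these same fetuses, so that corn-only regions in them are not independent evidence. Of these genes 6 held a corn-only region, 8 regions in all, and 13 held a hay-only region, 26 in all, out of 870 regions called in at least 3 fetuses within the 28 genes. That is 0.920% corn-only and 2.989% hay-only, beside 1.01% and 1.78% over the genome, so corn-only regions made up about the same share in these genes as elsewhere. Their values are given as a description only. SERBP1, which encodes an mRNA-binding protein, held 2. The stronger spans chromosome 1 from 42682008 to 42682542, with scores of 3.47 in corn fetus 9, 2.08 in fetus 6, 1.29 in fetus 2 and 1.20 in fetus 13. Its coordinates are those of a region in SERBP1 that the authors list as differentially methylated between the diets, so it is the same interval. The weaker lies from 42673990 to 42674160, where the scores were 1.03 in fetus 2, 1.06 in fetus 6 and 0.872 in fetus 9. Corn fetuses 2, 6 and 9 thus had a peak at both.

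TBC1D19, whose protein carries a domain found in activators of Rab GTPases, also held 2, on chromosome 6 from 45994812 to 45995198 and from 45995284 to 45995559. Corn fetuses 2, 4 and 7 had a peak at both, with scores of 1.42, 1.56 and 1.15 at the first and 1.06, 1.36 and 1.27 at the second. The remaining 4 genes held 1 corn-only region each, called in 3 corn fetuses. In PLCB4, a phospholipase C of calcium signalling, it lies on chromosome 13 from 1959327 to 1959575, with scores of 2.03 in fetus 6, 1.08 in fetus 13 and 0.978 in fetus 2. In PCOLCE2, an enhancer of procollagen processing, it lies on chromosome 1 from 244265753 to 244266031, with scores of 1.76 in fetus 14, 1.10 in fetus 7 and 1.08 in fetus 4. In SLC9A9, a sodium/proton exchanger of endosomes, the scores ran from 0.949 to 1.73 and in TBC1D5, a regulator of Rab7 and endosomal sorting, from 0.917 to 1.35. Most of these genes also held hay-only regions: 3 in SLC9A9, 2 each in PLCB4 and TBC1D19, 1 in TBC1D5 and 0 in SERBP1 and PCOLCE2. The authors' own region in PLCB4 is another interval, reported as higher in hay, and their bisulfite sequencing found no significant diet difference there. Genes outside the study's list were not placed, since no annotation of Oar_v3.1 was used here.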

How the data were processed

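DNA of 16 fetal LD samples, 8 per diet, was captured by its methylated CpG sites and sequenced. According to the labels and the study's methods, reads were cleaned by Trimmomatic 0.33, BWA-mem 0.7.15 placed them on Oar_v3.1, Picard 1.107 took out duplicates, and ChIPseeqer was run on every fetus separately (read length 101, fragment length 250). The threshold and any input control are not given in the sources used here. The authors deposited 1 peak list per fetus, with a position and a value read from its range (0 to 0.135) as the P-value. Peak heights and read numbers are not used here, so depth is unknown. No peak overlapped another of the same fetus, and 0 pairs of lists were identical.

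Scores were −log10 of the P-value, with 0 set to 1e-100. Widths count both end positions. Peaks sharing 1 bp were merged on chromosomes 1 to 26. Groups follow the diet in the sample titles. Left-out fetuses were compared between diets over all 12870 assignments of 8 of 16 fetuses, and within fetuses over 256 sign changes, both two-sided, with Benjamini-Hochberg adjustment over 6 tests. In left-out fetuses the first peak overlapping a region was used, and mixed regions were those called in 3 to 7 of the other 14, unweighted or, as added after seeing the data, weighted to the numbers of calling fetuses of the diet-only regions. Scripts (Python 3.11.15, numpy 2.4.6, scipy 1.17.1, pandas 2.3.3) were tested on simulated peaks. Confidence intervals are exact binomial at 95%, except those of the left-out differences between diets, which come from inverting the permutation test at 95%.

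The regions, tests and alternatives were chosen with earlier results of these data known. The 5 longest runs tied at 3 members, so the most compact were taken. Regions named are those with a peak in all 8 corn fetuses, the 5 with the highest mean score among those in at least 5, the 3 widest, the 3 most compact of the longest runs, the fullest 1-Mb window and those in genes with positions in the study's table; the regions called in 7 fetuses were added after their values were seen. Planned gene lists for muscle, lipid, one-carbon, methylation and imprinted genes could not be placed without an Oar_v3.1 annotation. Alternatives covered thresholds, overlap, numbers of peaks and left-out fetuses.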

Additional observations from a re-analysis of the deposited data

Results flagged for a closer look

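Of 24 sets of 8 values per fetus examined for a sample far from the rest, 1 stood out, and chance alone marks about 1 in 20. The highest peak score at any corn-only region was 6.41 in corn fetus 1, against 3.47 in the next corn fetus. It belongs to the region on chromosome 10 from 23559317, where the other 4 calling fetuses scored 1.27 to 2.62.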

How the results depend on the processing

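The number of corn-only regions was 4188 and moved most with the rule: 1275 with at least 4 corn fetuses, 15233 with up to 1 hay fetus and 2412 with peaks up to 500 bp apart merged. Leaving out 1 fetus at a time gave 2563 to 6719. It was 2563 without corn fetus 7, 6459 without hay fetus 8 and 6719 without hay fetus 15. Hay-only regions then numbered 13791, 4285 and 3549, so that the order of the classes turned in the last 2 cases, as it did without hay fetus 3, 5 or 16. The direction of these shifts follows from the rule, which a left-out fetus eases for the other diet and tightens for its own. With the same number of peaks in every fetus there were 4287 corn-only and 4611 hay-only regions, but only 9.84% of the original corn-only regions overlapped one of these. With scores above 1.19 the counts were 4540 and 4936, and 23.7% overlapped. Evening the peak numbers also raised the mean of median widths from 194 to 262 bp and of median scores from 1.19 to 1.51, which follows from keeping the best-scoring peaks. The rate on chromosome 19 fell from 1.40 to 1.01 times the overall rate with evened numbers and to 0.945 with scores above 1.19 (both chosen after seeing the data). Followed by another corn-only region were 4.73% with peaks up to 100 bp apart merged, 1.04% with 500 bp and 4.11% with evened numbers. The left-out difference in relative share (0.0730) ranged from −0.000498 to 0.250 without single fetuses, with exact permutation p from 0.276 to 0.998, and its sign turned without hay fetus 15. The left-out width difference ranged from −11.1 to −6.74 bp and the score difference from −0.0229 (without corn fetus 9, exact sign-flip p = 0.0312) to −0.0127. Against mixed regions weighted to the same numbers of calling fetuses, chosen after seeing the data, both turned in sign, to 3.76 bp (exact sign-flip p = 0.312) and 0.0137 (p = 0.211). Of the 11 named regions of the first 3 kinds, 9 or 10 still met the rule under each of 5 settings of threshold and overlap, but the 3 called in all 8 corn fetuses were called in 3 to 7 of them with scores above 1.19 and in 3 to 5 with evened numbers. No paired analysis of the diets was possible, because they were fed to different ewes and the labels give no pairs of corn and hay fetuses. Requiring a base under the peaks of 3 corn fetuses gave 3914 regions and including chromosome X 4370, both also chosen after seeing the data. Depth is unknown, and it limits what a missing peak can show.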

Other observations

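Chromosome X was left out of the rule. By the same criteria it held 182 corn-only and 259 hay-only regions among 27433 merged regions, beside 4188 and 7391 among 678678 on chromosomes 1 to 26. The sex of each fetus is not in the labels. The study's description of its fetuses lists as many females as males under hay but more males than females under corn. The part of sex in the counts on chromosome X was not tested.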
